A study of Mus musculus with 10 samples.

Results

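Levels of 9 genes of the retinoid (visual) cycle and of the retinal pigment epithelium were followed in mouse neuroretina, out of the 57186 genes in the deposited count table. They were taken by symbol: Rpe65, Lrat, Rdh5, Rlbp1, Rgr, Ttr, Best1, Rdh8 and Rdh12. RNA had been sequenced in bulk from 10 retinas of female C57BL6/JRj mice, 14 days after an intravitreal injection of 1 µL, that is, into the gel that fills the eye. In 5 libraries (CNP) the injection held graphitic carbon nitride nanoparticles, hg-C3N4, at 1 mg/mL in phosphate-buffered saline, and in the other 5 (PBS) it held the saline alone, so needle and saline were common to both groups. No genetic change is named in the labels. Each library keeps its labelled number (PBS 2, 6, 10, 14 and 18; CNP 4, 8, 12, 16 and 20), and the labels do not say that each came from a separate animal, so the p-values measure the spread between these libraries.

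In the visual cycle, light turns 11-cis-retinal in the photoreceptor opsins into the all-trans form, which photoreceptor dehydrogenases reduce to retinol. The retinol passes to the pigment epithelium, a pigmented cell layer behind the photoreceptors, where it is esterified, isomerised and oxidised back to 11-cis-retinal. The pigment epithelium is a separate layer from the neuroretina that was isolated here, while Müller glia, the radial glia that span the retina, belong to the neuroretina and carry some of the same genes. Levels below are CPM, counts brought to a common library size, scaled by the trimmed mean of M-values (TMM), a method that sets library sizes so that most genes do not differ. They are compared between libraries for 1 gene at a time, not between genes.

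The set of RefSeq start sites used here (GRCm38.p6) held 8 of the 9 genes and had no entry for Ttr. The 250 bases before the start are shown for 6 genes. Of these, 4 had levels that rose and fell together over the libraries (Rpe65, Lrat, Rdh5 and Rgr). Beside them are Rlbp1 and Rdh12, whose levels did not follow them in the same way. The windows are chr3:159598931-159599180 (plus strand) for Rpe65, chr3:82903975-82904224 (minus) for Lrat, chr10:128919298-128919547 (minus) for Rdh5, chr14:37049015-37049264 (minus) for Rgr, chr7:79387028-79387277 (minus) for Rlbp1 and chr12:79208663-79208912 (plus) for Rdh12. Each is written 5′ to 3′ in the direction of the gene, and capitals mark matches to CANNTG, the E-box, or to TAATCC and its reverse complement GGATTA, the word bound by the homeodomain factors OTX2 and CRX.
Rpe65: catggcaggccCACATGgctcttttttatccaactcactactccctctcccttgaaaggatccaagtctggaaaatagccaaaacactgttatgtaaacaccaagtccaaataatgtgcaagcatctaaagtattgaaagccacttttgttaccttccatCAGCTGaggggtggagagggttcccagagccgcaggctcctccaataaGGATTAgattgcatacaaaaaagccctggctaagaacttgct
Lrat: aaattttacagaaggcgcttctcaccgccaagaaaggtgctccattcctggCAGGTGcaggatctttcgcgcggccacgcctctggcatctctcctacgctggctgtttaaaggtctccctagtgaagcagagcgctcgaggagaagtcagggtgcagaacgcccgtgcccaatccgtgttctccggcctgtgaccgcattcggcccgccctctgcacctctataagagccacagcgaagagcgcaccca
Rdh5: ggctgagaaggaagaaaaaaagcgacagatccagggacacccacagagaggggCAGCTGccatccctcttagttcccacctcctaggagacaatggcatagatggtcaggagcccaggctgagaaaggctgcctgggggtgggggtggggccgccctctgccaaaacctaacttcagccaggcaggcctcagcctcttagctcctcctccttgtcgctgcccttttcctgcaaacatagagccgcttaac
Rgr: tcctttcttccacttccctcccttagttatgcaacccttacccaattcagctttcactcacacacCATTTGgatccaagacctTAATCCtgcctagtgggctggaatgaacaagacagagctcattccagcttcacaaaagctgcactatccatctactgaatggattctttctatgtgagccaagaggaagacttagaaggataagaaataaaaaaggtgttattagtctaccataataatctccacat
Rlbp1: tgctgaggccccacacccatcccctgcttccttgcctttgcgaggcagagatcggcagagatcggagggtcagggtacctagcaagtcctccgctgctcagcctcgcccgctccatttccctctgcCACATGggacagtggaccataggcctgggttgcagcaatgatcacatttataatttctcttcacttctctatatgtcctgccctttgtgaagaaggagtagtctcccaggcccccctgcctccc
Rdh12: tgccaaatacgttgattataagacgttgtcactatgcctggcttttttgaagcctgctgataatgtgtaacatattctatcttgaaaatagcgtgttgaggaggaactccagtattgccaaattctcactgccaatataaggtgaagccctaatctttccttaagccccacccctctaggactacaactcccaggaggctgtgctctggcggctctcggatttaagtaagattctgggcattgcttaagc
Both strands were searched. CANNTG occurred in 66.2% of 32851 windows of this length before RefSeq starts, and in 7 of the 8 found here, all but Rdh12. TAATCC or GGATTA occurred in 6.25% of all windows and in 3 of the 8: in Best1, whose window is not shown, 227 bases before the start, in Rpe65, 42 bases before it, and in Rgr, 167 bases before it, where the E-box CATTTG lay 185 bases before the start. TCATGTG, the M-box bound by the pigment cell factor MITF, or its complement CACATGA, occurred in 3.25% of all windows and in 0 of the windows of the 8 genes. The marked words did not overlap one another. These matches describe the letters of these windows only.

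Total counts ran from 3328518 to 5428697 per library, and 11499 genes passed the filter on low counts. Rod markers, the mark of neuroretina, summed to 82671 to 153717 CPM. All 16 pigment epithelium markers and all 10 melanin markers of the lists had counts, and 13 and 6 of them passed the filter. The pigment epithelium markers summed to 442 to 1170 CPM in PBS and 633 to 1362 CPM in CNP. Trf, Enpp2 and Krt18 held the largest parts of that sum. Lower markers were counted in every library as well, such as Kcnj13 at 8.31 to 58.1 CPM and the melanin gene Tyr at 1.04 to 9.63 CPM. RNA typical of that layer was thus present in every library. Of the 9 genes, 7 passed the filter. Best1 and Rdh8 did not. CNP 12 and PBS 14 held the highest and second highest mean level of the pigment epithelium and melanin markers, and PBS 6 and PBS 2 the lowest. All 5 libraries numbered above 10 exceeded all 5 numbered up to 10 in that level, although the labels do not call the number a batch. The TMM-scaled library size split the same way. It was at least 4582290 (PBS 10) among libraries numbered up to 10 and at most 4199250 (CNP 16) among those above. The total counts did not split fully: CNP 16 held 4337612 and PBS 10 held 4325794. Scaled size includes the TMM factor and is not depth alone. The split in marker level was narrow, at 4.04 in CNP 16 and 4.02 in CNP 4 (mean log2 CPM). Library number, scaled size and marker level therefore cannot be told apart between the 2 sets. In bulk tissue, fewer cells of a type and less RNA per cell cannot be told apart.

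Among the genes, 5 that act in the pigment epithelium differed several-fold between libraries of the same group. Rpe65 (ENSMUSG00000028174) encodes the isomerase that makes 11-cis-retinol, the defining enzyme of that layer. Its level was 14.5, 11.1, 33.2, 57.1 and 50.1 CPM in PBS 2, 6, 10, 14 and 18, and 28.1, 25.9, 82.2, 36.9 and 53.9 CPM in CNP 4, 8, 12, 16 and 20. PBS 2 and PBS 6 were low, CNP 12 was high, and the groups overlapped over most of their range. The means were 33.2 ± 20.6 CPM in PBS and 45.4 ± 23.3 CPM in CNP (SD, n = 5 each).

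Lrat (ENSMUSG00000028003), the acyltransferase that makes the retinyl esters RPE65 acts on, measured 4.55, 4.33, 9.82, 14.5 and 11.7 CPM in the PBS libraries in the same order and 7.86, 7.03, 20.2, 10.5 and 12.4 CPM in the CNP libraries. The order of the 10 libraries was the same as for Rpe65 at every rank. Rdh5 (ENSMUSG00000025350), the dehydrogenase that oxidises 11-cis-retinol, measured 25.3, 27.9, 64.4, 122.6 and 87.8 CPM in PBS and 71.6, 46.6, 140.0, 76.7 and 92.2 CPM in CNP. Again PBS 2 and PBS 6 were lowest and CNP 12 highest.

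Rgr (ENSMUSG00000021804) encodes an opsin inside pigment epithelium and Müller glia that turns all-trans-retinal into the 11-cis form in light. Its level was 222.5, 200.5, 470.1, 1097 and 720.9 CPM in PBS and 534.8, 406.8, 1057, 638.0 and 728.9 CPM in CNP. Ttr (ENSMUSG00000061808), the transthyretin that carries retinol-binding protein and that the pigment and ciliary epithelia secrete, measured 285.6, 225.9, 440.4, 1079 and 791.5 CPM in PBS and 613.9, 420.0, 1157, 653.0 and 763.2 CPM in CNP. For both genes PBS 14 and CNP 12 stood above the rest and PBS 2 and PBS 6 below. The CNP libraries lay inside the PBS range for Rgr, and for Ttr CNP 12 lay above it.

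**Figure D1:**
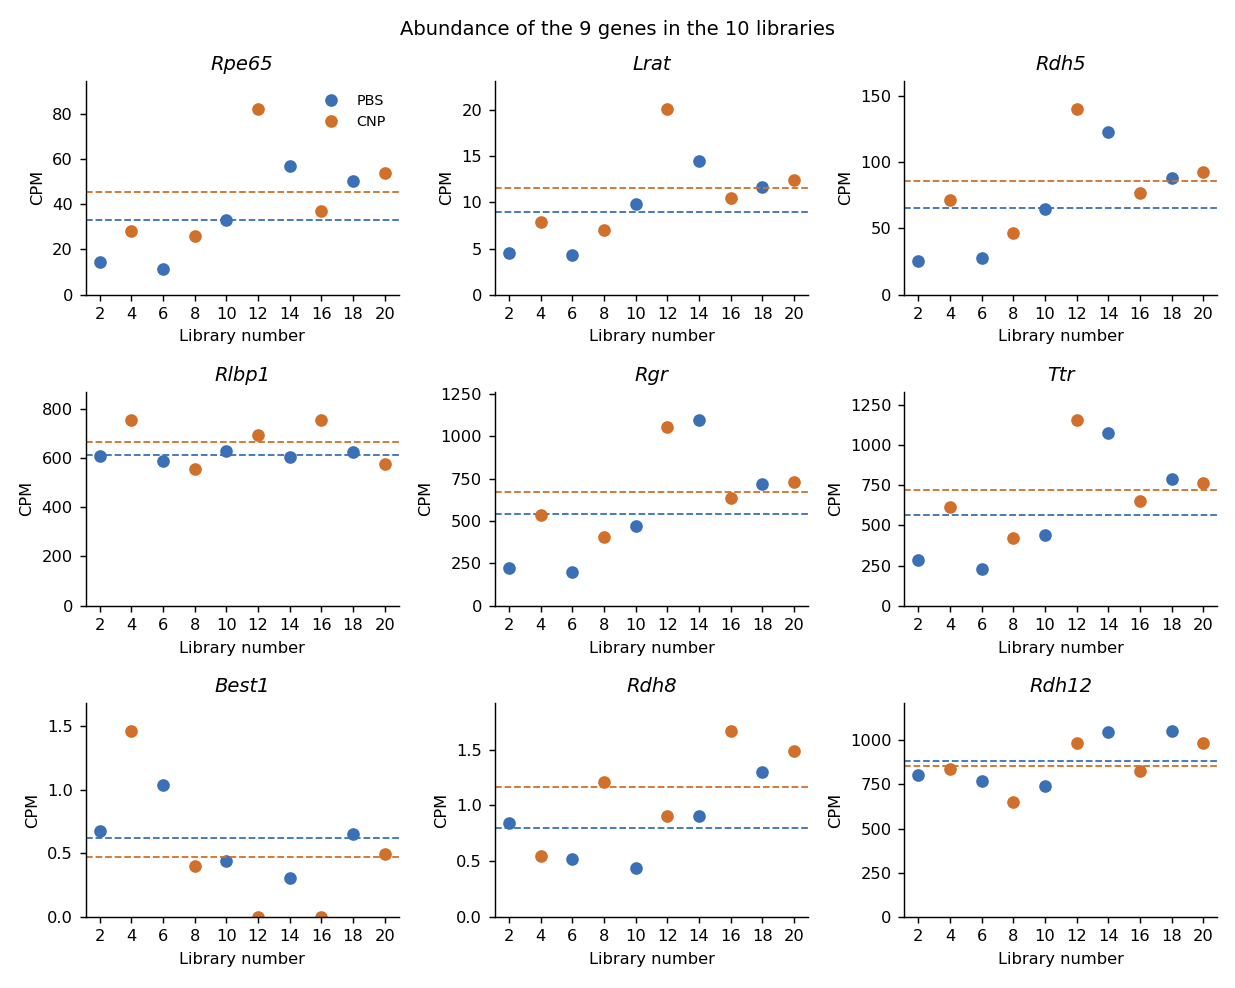
Level of each of the 9 genes (CPM, linear axis from 0) against the library number in the labels, 1 point per library, PBS in blue and CNP in orange, with dashed lines at the 5-library means. Rpe65, Lrat, Rdh5, Rgr and Ttr share 1 profile, lowest in PBS 2 and PBS 6, while Rlbp1 lies between 556 and 754 CPM throughout.

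Rlbp1 and Rdh12 gave other profiles. Rlbp1 (ENSMUSG00000039194) encodes CRALBP, the 11-cis-retinoid carrier of both pigment epithelium and Müller glia. It measured 608.8, 589.8, 627.0, 604.0 and 625.3 CPM in PBS 2, 6, 10, 14 and 18 and 754.4, 556.5, 692.1, 753.0 and 574.3 CPM in CNP 4, 8, 12, 16 and 20. The PBS libraries lay within 590 to 627 CPM and inside the range of the CNP libraries, and PBS 14, among the highest for the 5 genes above, was not raised. The coefficient of variation of Rlbp1 over all 10 libraries was 11.1%, against 46.6% to 55.3% for those 5 genes. These Rlbp1 values rest on TMM scaling. PBS 14 held 2000 Rlbp1 counts among 3919337 in all, on a scaled size of 3311040. PBS 2 held 3611 among 5428697, on a scaled size of 5931420. On library totals PBS 14 would stand lower, and PBS 2 higher, than given here.

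Rdh12 (ENSMUSG00000021123), a photoreceptor inner segment dehydrogenase that reduces all-trans-retinal and other aldehydes, measured 802.5, 767.1, 740.2, 1049 and 1051 CPM in PBS and 839.1, 652.6, 983.0, 823.2 and 982.0 CPM in CNP. CNP 8 was lowest and PBS 14 and PBS 18 highest, a spread of 15.9% as a coefficient of variation. Rdh8 (ENSMUSG00000053773), the outer segment dehydrogenase for all-trans-retinal, had 42 counts in all, from 2 in PBS 10 to 7 in CNP 16. Best1 (ENSMUSG00000037418), a chloride channel of the pigment epithelium's basal membrane, had 27 counts in all, from 0 in CNP 12 and CNP 16 to 8 in CNP 4. A count of 0 in CNP 12 allows up to 0.903 CPM, and in CNP 16 up to 0.714 CPM, for counting error only. At these counts a Best1 or Rdh8 profile could not be read.

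Whether the levels come with pigment epithelium or with neuroretina was asked by co-variation. For each library, the mean log2 CPM of the tested markers was taken for pigment epithelium (19 genes, melanin genes included), Müller glia (12) and rods (14), with none of the 9 genes in any of these levels. Rpe65, Lrat, Rdh5, Rgr and Ttr followed the pigment epithelium level over the 10 libraries. Pearson r was 0.99 for Rpe65 (permutation p = 1e-05, the smallest that 100000 permutations give, and 9e-05 after Benjamini-Hochberg adjustment over 27 relations), 0.98 for Lrat (adjusted permutation p = 9e-05), 0.97 for Rdh5 (0.000135), 0.98 for Rgr (0.000162) and 0.98 for Ttr (9e-05). Spearman's rho was 0.99 for each (adjusted permutation p at most 0.000108). Without PBS 6 and CNP 12, the libraries farthest from the median, r was still 0.95 to 0.97 (exact permutation p at most 0.000422). Of 11408 tested genes outside the lists, 1.04% reached an r of 0.9 with that level and 14.2% an r of 0.7.

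The same 5 genes also rose with the rod level (r from 0.77 to 0.86, rho from 0.87 to 0.92, adjusted permutation p at most 0.0143). They fell with the Müller glia level (r from -0.82 to -0.78, rho from -0.85 to -0.79, adjusted permutation p at most 0.0141). Without CNP 8 and PBS 14, the farthest in rod level, the first r was 0.79 to 0.88 (exact permutation p at most 0.0191). Without PBS 2 and PBS 14, the farthest in Müller glia level, the second was -0.78 to -0.67, with an exact permutation p of 0.0546 for Rdh5 and 0.0674 for Ttr and of at most 0.0463 for the others. Outside the lists, 15.0% of genes reached an r of 0.7 with the rod level and 3.13% an r of 0.9, and for the Müller glia level these shares were 19.3% and 4.67%. The 3 levels were themselves related: r was 0.82 between pigment epithelium and rod (permutation p = 0.00386, adjusted over 3 relations 0.0053), -0.80 between pigment epithelium and Müller glia (adjusted 0.0053) and -0.89 between Müller glia and rod (adjusted 0.00183). Pigment epithelium and rod levels did not overlap between libraries numbered up to 10 and above 10, and the Müller glia level overlapped in 1 library of each set, PBS 10 and CNP 16. With 5 libraries in each set no r was taken within 1 set, so levels were centred on the means of the libraries numbered up to 10 and above 10, a choice made after seeing the data. Permutations then shuffled the centred values over all 10 libraries and not within each set, which can make their p-values too small. The relation of the 5 genes to the pigment epithelium level then remained, with r from 0.92 to 0.96 (adjusted permutation p at most 0.00135). Their relation to the rod level was no longer called (r from 0.24 to 0.51, adjusted permutation p from 0.347 to 0.603), nor was that to the Müller glia level (r from -0.44 to -0.31, adjusted permutation p from 0.41 to 0.529).

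Rdh12 was most closely related to the rod level, though the difference between its relations was not tested. Its r with the rod level was 0.94 (rho 0.93, adjusted permutation p = 0.00081 for r and 0.00166 for rho), and 0.93 without CNP 8 and PBS 14 (exact permutation p = 0.00169). After centring on the library number sets it was 0.79 (adjusted permutation p = 0.044, close to the threshold and possibly too small for the reason above). With the pigment epithelium level r was 0.74 (rho 0.81, adjusted permutation p = 0.0236), and 0.77 without PBS 6 and CNP 12 (exact permutation p = 0.0229). That relation was not called after the same centring (r = 0.25, adjusted permutation p = 0.602), without PBS 14 (r = 0.68, adjusted exact permutation p = 0.061) or with libraries scaled by their totals (r = 0.44, adjusted permutation p = 0.245). With the Müller glia level r was -0.78 (adjusted permutation p = 0.0143) and rho -0.64 (adjusted permutation p = 0.0812).

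No relation of Rlbp1 to the 3 levels was called: r was 0.22 with pigment epithelium (adjusted permutation p = 0.588), 0.16 with Müller glia (0.67) and 0.15 with rods (0.67). These values turned on the scaling. With library totals in place of TMM, r with the Müller glia level was 0.70 (adjusted permutation p = 0.0439), with the pigment epithelium level -0.29 and with the rod level -0.52. Best1 and Rdh8, on few counts, had r of -0.55 and 0.38 with the pigment epithelium level (adjusted permutation p = 0.143 and 0.328).

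**Figure D2:**
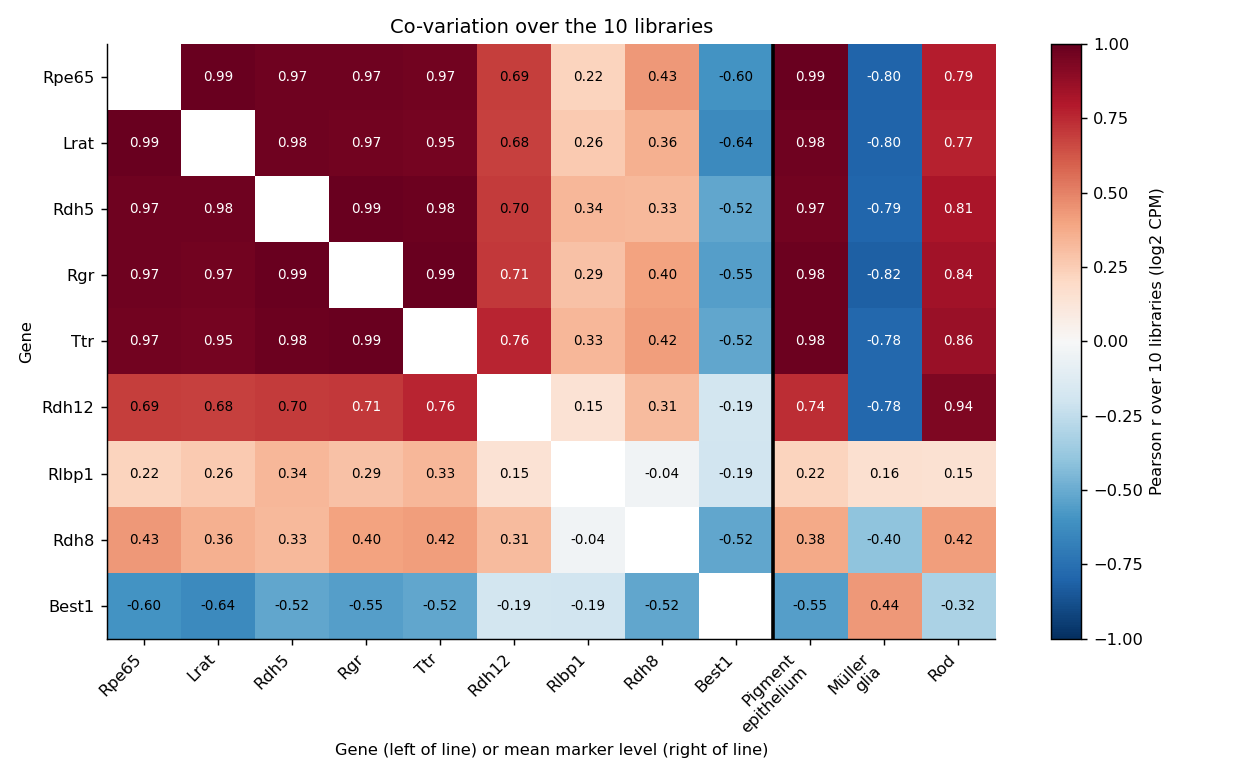
Pearson r of log2 CPM over the 10 libraries for each pair of the 9 genes (left of the line) and for each gene with the mean marker level of 3 cell types (right of the line), on a colour scale from -1 to 1. Rpe65, Lrat, Rdh5, Rgr and Ttr form a block with r of 0.95 to 0.99, and Rdh12 has its highest r, 0.94, with the rod level.

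Among the 36 pairs of the 9 genes, all 10 pairs within Rpe65, Lrat, Rdh5, Rgr and Ttr were called, with r from 0.95 (Lrat and Ttr) to 0.99 (Rdh5 and Rgr), rho of at least 0.98 and adjusted permutation p from 0.00012 to 0.000252. Without the 2 libraries farthest from the median of the first gene of each pair, r was 0.89 to 0.98. Of the 20 pairs between these 5 and the other 4 genes, 1 was called, Ttr with Rdh12 (r = 0.76, adjusted permutation p = 0.0385). That call ended when any of CNP 4, PBS 10, CNP 12, PBS 14, CNP 16, PBS 18 or CNP 20 was left out, with adjusted exact permutation p from 0.0566 to 0.114. With other settings included, the call for Ttr with Rdh12 was lost under 9 of the alternatives. Values of 1 library share its scaling and depth, which these correlations cannot separate.

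The counts of Lrat, Rdh5, Rgr and Ttr kept a narrow ratio to Rpe65 counts, a measure that needs no scaling. Rgr counts per Rpe65 count ran from 12.9 in CNP 12 to 19.2 in PBS 14, Rdh5 from 1.70 in CNP 12 to 2.55 in CNP 4, Ttr from 13.3 in PBS 10 to 21.8 in CNP 4, and Lrat from 0.230 in CNP 20 to 0.391 in PBS 6. The largest ratio was 1.49 to 1.70 times the smallest for these 4 genes. For Rlbp1 the ratio ran from 8.42 in CNP 12 to 53.2 in PBS 6, 6.32 times, and for Rdh12 from 11.96 to 69.2 in the same libraries, 5.79 times. The mean ratio was close in both groups for Rgr, at 16.2 ± 2.28 in PBS and 15.7 ± 2.56 in CNP, and for Rdh5, at 2.02 ± 0.322 and 1.97 ± 0.357 (SD, n = 5 each).

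A straight line through each gene's CPM against Rpe65 CPM, added after seeing the data, splits a level into a part proportional to Rpe65 and a constant part, the level where Rpe65 would be 0. Counting error in Rpe65 raises the constant part. For Rdh5 it was 10.1 CPM (SE 6.86, n = 10), 13.4% of the mean level. It was 14.2% for Rgr (SE 12.7 percentage points), 15.99% for Ttr (SE 10.8) and 16.4% for Lrat (SE 4.61). The constant part was thus less than 2 SE from 0 for Rdh5, Rgr and Ttr, and above that for Lrat. For Rlbp1 it was 617 CPM (SE 50.4), 96.6% of the mean, and for Rdh12 680 CPM (SE 65.9), 78.3% of the mean. These 2 values are not shares of a cell type. The Müller glia level fell as the pigment epithelium level rose (r = -0.80), and the rod level rose with it (r = 0.82). A line on Rpe65 alone cannot separate such opposed or parallel parts. Leaving out each library in turn moved these shares to 8.33% to 17.3% for Rdh5, 1.88% to 19.2% for Rgr, 9.39% to 19.8% for Ttr, 14.4% to 21.8% for Lrat, 94.1% to 101% for Rlbp1 and 72.6% to 81.0% for Rdh12.

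**Figure D3:**
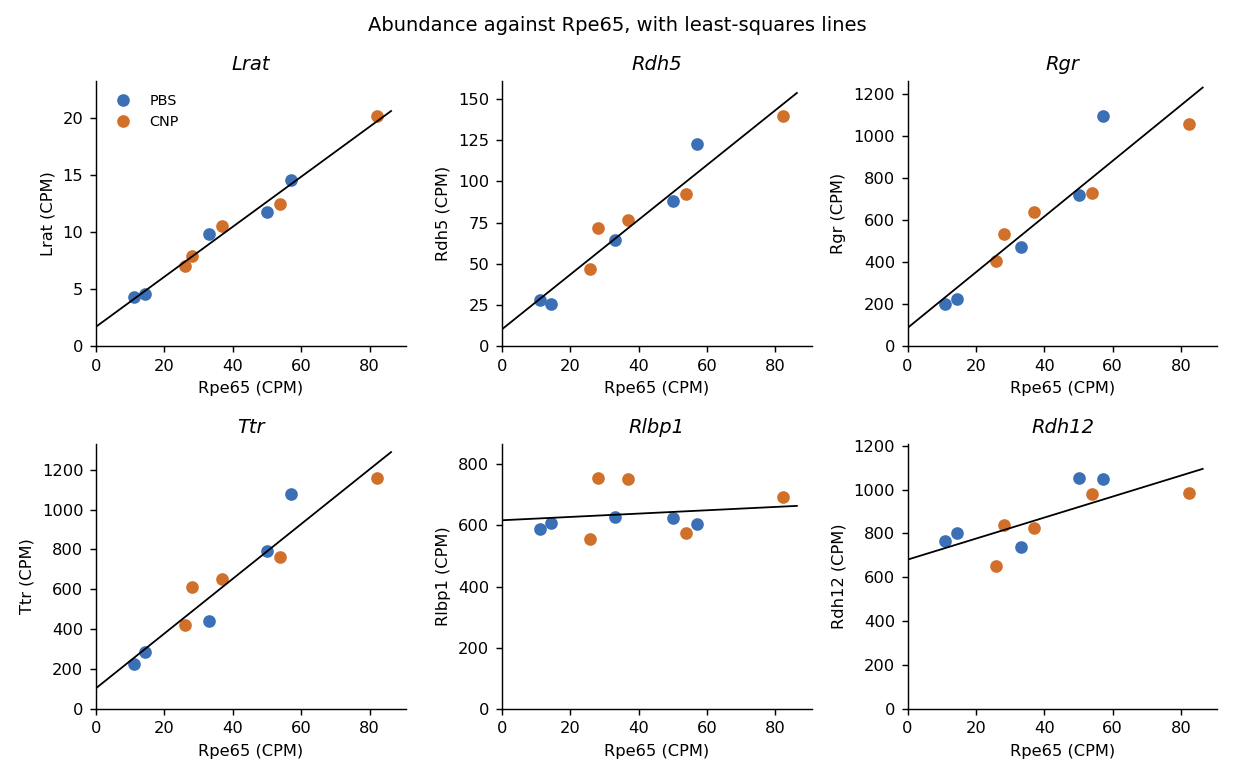
CPM of 6 genes against CPM of Rpe65, 1 point per library (PBS blue, CNP orange), with the least-squares line over all 10 libraries and both axes from 0. The lines for Lrat, Rdh5, Rgr and Ttr meet the vertical axis near its foot, at 13.4% to 16.4% of the mean level, and that for Rlbp1 is nearly level.

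The genes closest to Rpe65 in profile included other genes of that layer. Over the 10 libraries, the 10 of 11499 tested genes outside the 9 with the highest r were Kcnj13, the potassium channel Kir7.1 of the pigment epithelium (r = 0.99), the prostaglandin D synthase Ptgds (0.98), the paraoxonase Pon1 (0.98), the retinol-binding protein receptor Stra6 (0.97), Tyr, the tyrosinase of melanin synthesis (0.97), Ermn (0.97), Enpp2, or autotaxin (0.97), the amino acid transporter Slc6a20a (0.97), the phosphate transporter Slc17a1 (0.96) and Pcp4l1 (0.96). Of these, 6 were on the lists of markers or retinoid genes. Those closest to Rlbp1 were Aga, Amacr, Crym, Map1lc3a and Nefl (r from 0.86 to 0.92), none of them a Müller glia marker of the list. Those closest to Rdh12 were Bcas2, Cdk2ap2, Slc16a6, Xrcc4 and Lgalsl (r from 0.95 to 0.97).

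Of 28 other retinoid genes, 19 passed the filter, and their profiles ran from close to that of Rpe65 to nearly its reverse. Stra6, which takes retinol up from the blood side, had an r of 0.97 with the pigment epithelium level and Rdh10, another 11-cis-retinol dehydrogenase, an r of 0.94. Of the tested markers of the level itself, each set against the rest of that level, 7 of 13 pigment epithelium markers and 1 of 6 melanin markers were at 0.9 or above. Not all of them followed it: Sulf1 (r = -0.63) and Serpinf1 (-0.66) ran the other way, Slc24a5 stood at -0.067 and Mitf, a pigment cell transcription factor, at 0.27. Krt18, Tyrp1 and Cdh3 had a higher r with the rod level (0.94, 0.82 and 0.80) than with their own (0.89, 0.61 and 0.79). No other marker that rose with its own level did. The level was not particular to that layer: 9 of 14 rod markers and 4 of 9 cone markers had an r of at least 0.7 with it. At 0.9 or above these were 0 and 1. Among the retinoid genes, Rrh, or peropsin, an opsin of pigment epithelium microvilli, did not follow the pigment epithelium level: it measured 18.5 to 31.6 CPM with an r of -0.28. Rbp3, the interphotoreceptor retinoid-binding protein made by photoreceptors, had an r of 0.14 with the pigment epithelium level and 0.40 with the rod level. Abca4, the retinal flippase of outer segments, had an r of 0.76 with both. Crabp1, a retinoic acid-binding protein, had the lowest r of the 19, -0.92. Sulf1, Serpinf1, Cdh3, Rrh, Abca4 and Crabp1 were chosen after their values were seen, and these values over 10 libraries are a description. In the lines against Rpe65, the constant part was 22.9% of the mean for Stra6 (SE 7.74 percentage points), 61.9% for Rdh10 (SE 7.42) and 108% for Rrh (SE 11.1).

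**Figure D4:**
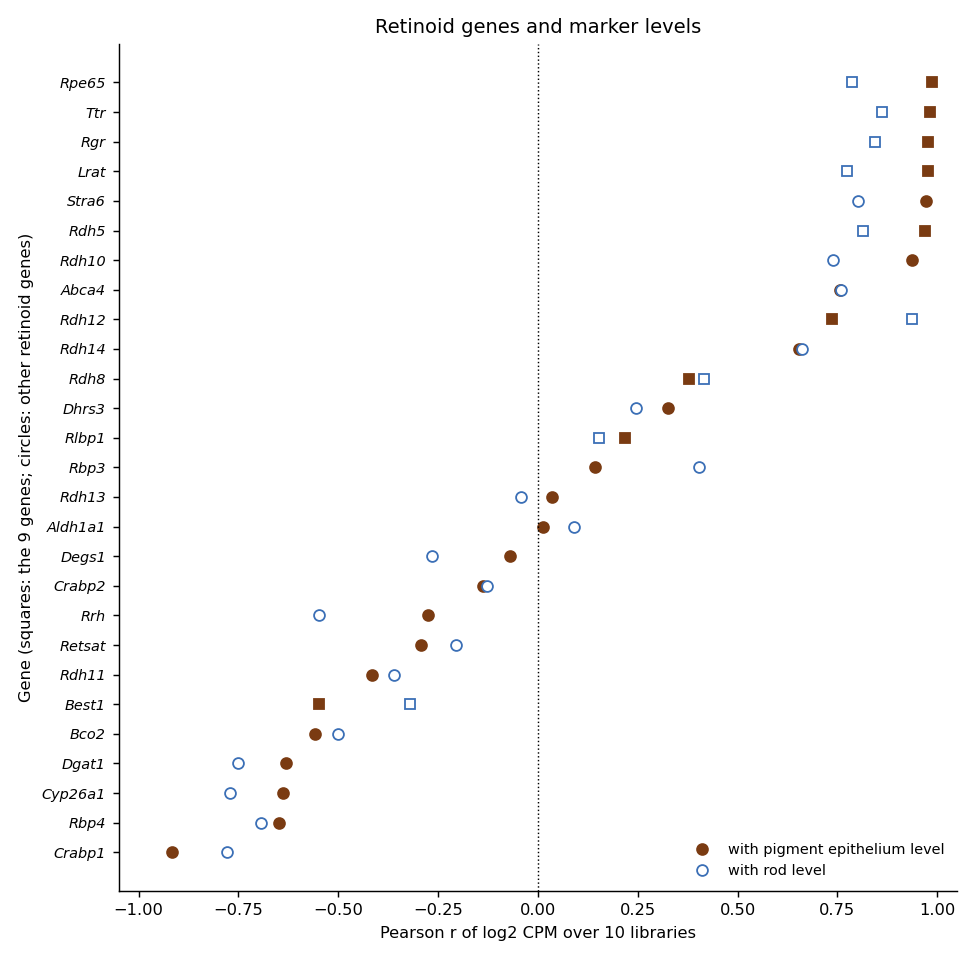
Pearson r of log2 CPM over the 10 libraries with the pigment epithelium level (filled brown) and the rod level (open blue) for the 9 genes (squares) and other retinoid genes that were tested (circles). Stra6 and Rdh10 lie with Rpe65, Ttr, Rgr, Lrat and Rdh5 at 0.94 or above, and Rrh lies at -0.28.

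Markers of other ocular tissue that a dissected retina could hold were examined as well, and the sum of those of choroid and sclera was highest in CNP 12, as was the pigment epithelium level. Ciliary and iris markers summed to 14.5 to 28.2 CPM, and the 2 tested, Col9a1 and Wfdc1, had r of -0.68 and -0.25 with the pigment epithelium level. Lens markers varied from 187 to 7302 CPM, with r of 0.04 to 0.15 for the 5 tested. The choroid and sclera markers summed to 26.7 CPM in PBS 6, the lowest, and 50.3 CPM in CNP 12, the highest. PBS 18, numbered above 10, was second lowest at 27.3 CPM. Of these markers, 2 were tested: the smooth muscle actin Acta2 had an r of 0.92 and Plvap -0.48. The 5 that failed the filter, Col1a1, Col1a2, Col3a1, Dcn and Lum, were each highest in CNP 12, at 6.32, 5.12, 6.32, 5.72 and 1.81 CPM, on 6 to 21 counts. With any 1 library left out, CNP 12 included, r of Rpe65, Lrat, Rdh5, Rgr and Ttr with the pigment epithelium level was 0.96 to 0.99 (adjusted exact permutation p at most 0.000446). Alb, of liver, had 0 counts in every library, and the haemoglobin genes Hbb-bs and Hba-a1 had r of 0.48 and -0.43. The part of these tissues in the levels of Ttr and Rgr was not tested.

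Nanoparticles against saline was the comparison of the study. Of the 7 tested genes, 6 had a higher mean in CNP and 1, Rdh12, a lower one, but by edgeR's quasi-likelihood test 0 of 7 passed an adjusted p of 0.05, and neither did any other gene (0.0% of 11499 called; smallest adjusted p = 0.9997). An unadjusted p under 0.05 was reached by 137 of all genes (1.19%) and by 0 of the 7. With the log2 total count as a covariate, the unadjusted p was 0.0154 for Rpe65 (log2 fold change 0.53) and 0.0477 for Rdh5 (0.50), with an adjusted p of 0.9999 in edgeR, and 240 of all genes were under 0.05. DESeq2 and limma-voom also called 0 genes, with 146 and 142 at an unadjusted p under 0.05. The log2 fold change was 0.48 for Rpe65 (95% interval -0.48 to 1.44), 0.40 for Lrat (-0.40 to 1.21), 0.40 for Rdh5 (-0.49 to 1.28), 0.31 for Rgr (-0.60 to 1.22) and 0.36 for Ttr (-0.50 to 1.21). For these 5 genes the interval reaches past a 2-fold rise, so a rise of that size was not excluded. Each of these values turned on single libraries. Without CNP 12 they were 0.16 for Rpe65, 0.12 for Lrat, 0.15 for Rdh5, 0.09 for Rgr and 0.12 for Ttr, and without PBS 14 they were 0.77, 0.64, 0.75, 0.74 and 0.73. A fold change above 0 was found in 48.8% of all genes, and the 5 genes share 1 profile and are not 5 separate observations.

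On TMM scaling, Rlbp1 and Rdh12 had narrower intervals than the genes above. The small PBS spread of Rlbp1 depends on that scaling. Rlbp1 had means of 611 ± 15.5 CPM in PBS and 666 ± 95.5 CPM in CNP (SD, n = 5 each) and a log2 fold change of 0.12 (SE 0.11, 95% interval -0.12 to 0.37). Rdh12 had 882 ± 155 and 856 ± 137 CPM and a log2 fold change of -0.04 (SE 0.15, 95% interval -0.37 to 0.28). Both intervals leave out a 2-fold change in either direction. On library totals, Rdh8 averaged 0.783 ± 0.294 CPM in PBS and 1.153 ± 0.433 CPM in CNP (SD over 5 libraries; two-sided exact permutation p = 0.143). Best1 averaged 0.636 ± 0.326 and 0.481 ± 0.611 CPM (exact permutation p = 0.619), where the smallest p that this design allows is 0.00794. For none of the 9 genes were the groups free of overlap, as they were for 0.287% of all tested genes.

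The difference between groups in the 5 pigment epithelium genes went along with that of their markers. The mean pigment epithelium level was 3.93 ± 0.54 in PBS and 4.22 ± 0.37 in CNP (log2 CPM, SD, n = 5 each). With that level as a covariate the log2 fold changes were 0.05 for Rpe65, 0.01 for Lrat, 0.06 for Rdh5, 0.04 for Rgr and 0.06 for Ttr (edgeR adjusted p of at least 0.985), while that of Rlbp1 was 0.12 and that of Rdh12 -0.16. The 5 genes had r of 0.97 to 0.99 with this covariate, so values near 0 follow from that co-variation alone. An effect of the particles on the layer itself would give the same values and was not tested. Library number was uneven too, with 3 PBS and 2 CNP libraries numbered up to 10 and 2 and 3 above. Among those up to 10, the log2 ratio of the CNP to the PBS mean was 0.66 for Rgr, 0.70 for Ttr and 0.59 for Rdh5, and among those above it was -0.17, -0.13 and -0.03. For Rpe65 the ratios were 0.47 and 0.11 and for Lrat 0.26 and 0.13. These within-set values have 2 or 3 libraries a group and were not tested.

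Other retinoid genes gave no call either: 0 of 19 tested were higher and 0 lower, with 8 positive and 11 negative log2 fold changes and a median of -0.03, against -0.0036 over all 11499 genes. The 4 with the highest mean level were Rbp3 (log2 fold change -0.03, 95% interval -0.26 to 0.20), the retinal reductase Dhrs3 (-0.04, -0.35 to 0.27), Degs1 (0.04, -0.16 to 0.25) and Rdh10 (0.23, -0.17 to 0.62). Stra6 stood at 0.39 (-0.38 to 1.17), from 41.2 ± 23.8 to 53.2 ± 17.6 CPM (SD, n = 5 each), beside the pigment epithelium genes whose profile it shared. Rrh stood at 0.17 (-0.14 to 0.48).

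**Figure D5:**
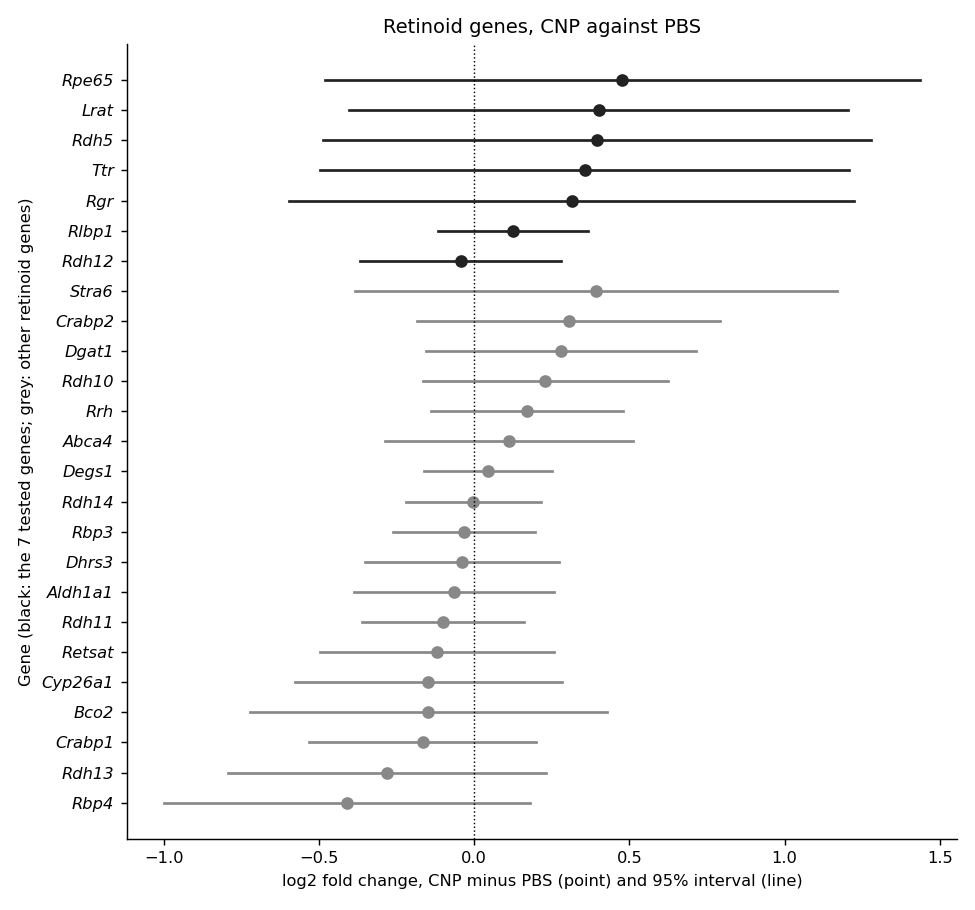
log2 fold change of CNP against PBS (points) with its 95% interval (lines) for the 7 tested genes (black) and other tested retinoid genes (grey), from edgeR with 5 libraries a group. Every interval crosses 0, and those of Rlbp1 and Rdh12 are the narrowest of the 7.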

How the data were processed

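Polyadenylated RNA of 10 neuroretinas was copied with primers that carry barcodes and unique molecular identifiers, per the labels' protocols. STAR, STARsolo and build GRCm39 are named per the submitters' processing notes. Not given in the sources used here were the annotation release, use of strand and collapsing of identifiers. The authors deposited raw counts for 57186 Ensembl genes, 1 column per library, of which 51880 had a symbol in the table used. Members and gene lists were chosen with earlier results of these data known.

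Counts were filtered with filterByExpr (minimum count 10, minimum total 15), scaled by TMM and tested with edgeR 4.0.16 in R 4.3.3 (limma 3.58.1 and DESeq2 1.42.0 as alternatives), two-sided, with Benjamini-Hochberg adjustment over 11499 genes and no covariate. The common biological coefficient of variation was 19.1%. log2 CPM used a prior count of 2. Correlations used 100000 permutations with 10 libraries and exact ones with fewer. The scripts were tested on simulated data. By rule, named genes were the 9 members, the genes of highest r with Rpe65, Rlbp1 and Rdh12, and up to 4 genes of each list by mean level. Sulf1, Serpinf1, Cdh3, Rrh, Abca4 and Crabp1 were named outside that rule, after their values were seen. Col3a1, Dcn and Lum were named to list all choroid and sclera markers that failed the filter. Limits for a count of 0 rest on 3 counts. Gene coordinates are not given, since the annotation used is on GRCm38. Counts over the other retinoid genes include 1 gene that is not reported here by name.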

Additional observations from a re-analysis of the deposited data

How the results depend on the processing

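Under 21 alternatives (other tools, scalings, filters and covariates, and leaving out each library in turn) the count of genes called stayed at 0, with 105 to 500 genes at an unadjusted p under 0.05. The 6 positive log2 fold changes of the tested genes stayed positive, from 0.0044 to 0.77, and none was called (smallest adjusted p = 0.928). Rdh12 stood at -0.16 with the pigment epithelium level as a covariate and ran from -0.098 to 0.045 as each library was left out, positive without CNP 8, PBS 14 or PBS 18. The median log2 fold change of all genes lay between -0.011 and 0.013. The relation of Rpe65, Lrat, Rdh5, Rgr and Ttr to the pigment epithelium level was called under all 18 alternatives run on it, with r from 0.912 to 0.995, and so were their 10 pairs under all 14 run on those, with r from 0.87 to 0.99. Among the 18, a level of 6 pigment epithelium markers and the centring on library number sets were added outside the plan. That level of 6 markers left out Sulf1 and Serpinf1, which ran the other way. Leaving out each library in turn, Rdh12's r with the full pigment epithelium level ran from 0.68 to 0.81.

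With library totals only, r with the pigment epithelium level was 0.44 for Rdh12 and -0.29 for Rlbp1, and Rlbp1's r was -0.52 with the rod level, -0.31 with Rpe65, -0.25 with Lrat, -0.23 with Rdh5, -0.29 with Rgr, -0.26 with Ttr, 0.15 with Best1 and -0.30 with Rdh12. Centred on the library number sets, r with the pigment epithelium level was 0.25 for Rdh12 and -0.38 for Rdh8. Rlbp1's r with the rod level was -0.0034, Best1's r was -0.20 with the Müller glia level and 0.61 with the rod level, and Rdh8's was 0.43 and -0.54. In the same setting Rdh8's r was -0.30 with Rpe65, -0.46 with Lrat, -0.47 with Rdh5, -0.36 with Rgr, -0.35 with Ttr and -0.61 with Rdh12, and that of Best1 with Rdh12 was 0.73 (adjusted permutation p = 0.0461). That p, too, came from centred values shuffled over all 10 libraries, which can make it too small. Leaving out each library in turn, changes of sign in r came only in relations of Rlbp1 that were not called: its r ran from -0.0633 to 0.31 with the Müller glia level, from -0.0464 to 0.32 with the rod level, from -0.44 to 0.22 with Rdh8, from -0.15 to 0.27 with Rdh12 and from -0.75 to 0.15 with Best1. As deviations from group means, Rdh12 was also called with Rpe65 (0.78), Lrat (0.75), Rdh5 (0.79) and Rgr (0.79). Those calls used the same kind of shuffling, across groups, and their p-values can be too small. The causes were not tested. No paired analysis was possible because the labels give no pairing of PBS with CNP libraries. Depth limits what can be said of Best1 and Rdh8.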
